A study of Mus musculus with 18 samples.

Results

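Glycolytic enzymes and other targets of the low-oxygen response were followed as 1 group of genes while mouse embryonic stem cells differentiated toward heart muscle. The group was set by a list of 36 gene symbols, and 35 of them were rows of the count table, out of 23337 gene symbols in all. Pkm was listed but was not a row under that symbol. Of the 35 genes, 16 encode enzymes, regulators or the lactate transporter of glycolysis and 19 are other genes known to respond to low oxygen or to sense it. All 35 passed the filter on low counts and were tested.

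The cells, all untreated, were of a line labelled TBX5-FTA with the background A2Lox.cre. The label for days 5, 6 and 7 (D5, D6 and D7) was cardiac progenitor cells, and for days 8, 10 and 15 (D8, D10 and D15) it was immature cardiomyocytes. Each day had 3 poly(A) RNA libraries, 18 in all, with 5257601 to 7122093 counts each. The labels give no oxygen tension and no low-oxygen treatment, nor do they say how many clones the line stands for or whether a separate culture was behind each library. The p-values are therefore set by library-to-library spread, which may be technical. In these bulk samples, fewer cells of a type and less RNA per cell cannot be told apart. Exons of Hk1, Gpi1, Pfkp, Aldoa, Tpi1, Gapdh, Ndufa4l2, Bnip3, Ankrd37, Higd1a, Mxi1, Bhlhe40, Car9 and Hif1a overlap those of another annotated gene, whose reads their counts could hold.

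Cells without enough oxygen make ATP mainly by glycolysis, which splits glucose into pyruvate, and turn pyruvate into lactate instead of burning it in mitochondria. The switch is run by the hypoxia-inducible factors (HIFs), pairs of an oxygen-sensitive alpha subunit and a stable partner. With oxygen present, prolyl hydroxylases mark the alpha subunit for destruction, so HIF activity is set mainly by protein stability and not by the amount of alpha subunit RNA. The early heart forms under low oxygen and relies on glycolysis, and heart muscle turns to fatty acids as it matures.

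HIFs bind short promoter and enhancer sequences with the core ACGTG or GCGTG. Of the 35 genes, 31 had a promoter entry in RefSeq (GRCm38.p6), and Ndufa4l2, Bnip3l, Epas1 and Bhlhe40 are named only. RefSeq gave several start sites for 10 of the 31, and the 250 bases before each were searched. In at least 1 of these windows, 29 of the 31 genes (93.55%) held ACGTG or GCGTG on either strand, and the 2 without it were Tpi1 and Gpi1. The share was 41.5% of all 27025 genes in the promoter table and 61.8% of the 9358 tested genes that matched it by symbol. At the most upstream start site alone it was 25 of 31 (80.7%), against 38.6% of all genes and 57.3% of tested genes, and Aldoa, Hk1, Vegfa and Mxi1 held it only at another start site. Windows with 2 or more places were found for 20 of the 31 (64.5%), against 15.5% of all genes and 27.9% of tested genes. The longer letters CACGTG, which hold ACGTG on both strands, stood in 4 of the 31 (Pfkfb3, Ldha, Bnip3 and Hif1a), a share of 12.9%, against 6.86% of all genes and 10.1% of tested genes. A match is a description of these letters and not a measured binding site.

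Promoters of 6 genes follow because the results turn on these genes or on their group: a lactate-making enzyme, the lactate exporter, a brake on pyruvate burning, a collagen hydroxylase, an oxygen sensor and a mitophagy receptor. Each runs 5′ to 3′ in the direction of the gene and ends at the base before the start site, the most upstream one where RefSeq gives several. Capitals mark ACGTG or GCGTG on either strand, merged where matches overlap. Ldha lies at chr7:46845554-46845803 (plus strand), Slc16a3 at chr11:120948817-120949066 (plus), Pdk1 at chr2:71872974-71873223 (plus), P4ha1 at chr10:59323046-59323295 (plus), Egln3 at chr12:54203875-54204124 (minus) and Bnip3 at chr7:138909507-138909756 (minus).
Ldha: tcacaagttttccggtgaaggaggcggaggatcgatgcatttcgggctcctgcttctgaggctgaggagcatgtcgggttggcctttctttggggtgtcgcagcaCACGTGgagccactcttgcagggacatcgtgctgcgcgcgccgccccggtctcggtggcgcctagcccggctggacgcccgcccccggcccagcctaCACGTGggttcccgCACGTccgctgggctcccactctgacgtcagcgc
Slc16a3: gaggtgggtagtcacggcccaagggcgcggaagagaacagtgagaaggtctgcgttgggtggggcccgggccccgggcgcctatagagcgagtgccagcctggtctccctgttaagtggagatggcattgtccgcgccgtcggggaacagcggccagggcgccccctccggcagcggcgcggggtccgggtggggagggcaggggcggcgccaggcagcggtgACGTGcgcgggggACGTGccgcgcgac
Pdk1: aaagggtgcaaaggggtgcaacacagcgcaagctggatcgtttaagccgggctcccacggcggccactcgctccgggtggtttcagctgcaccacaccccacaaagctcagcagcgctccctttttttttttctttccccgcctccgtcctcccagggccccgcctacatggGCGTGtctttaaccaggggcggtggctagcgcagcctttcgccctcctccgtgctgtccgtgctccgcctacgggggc
P4ha1: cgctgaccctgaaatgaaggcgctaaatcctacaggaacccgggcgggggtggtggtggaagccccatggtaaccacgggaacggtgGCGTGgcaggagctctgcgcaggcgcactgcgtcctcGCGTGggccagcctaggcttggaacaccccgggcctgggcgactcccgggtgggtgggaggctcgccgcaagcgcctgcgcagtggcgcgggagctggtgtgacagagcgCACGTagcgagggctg
Egln3: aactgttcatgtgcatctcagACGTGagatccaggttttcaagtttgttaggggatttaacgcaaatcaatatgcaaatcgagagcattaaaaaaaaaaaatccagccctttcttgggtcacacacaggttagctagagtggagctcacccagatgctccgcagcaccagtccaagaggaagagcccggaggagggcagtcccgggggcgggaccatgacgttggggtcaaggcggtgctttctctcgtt
Bnip3: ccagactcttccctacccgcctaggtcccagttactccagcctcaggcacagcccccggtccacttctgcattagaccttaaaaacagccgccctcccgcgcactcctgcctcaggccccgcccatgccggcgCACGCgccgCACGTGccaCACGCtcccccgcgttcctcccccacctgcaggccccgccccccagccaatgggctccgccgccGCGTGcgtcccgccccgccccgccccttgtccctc
The window of Bnip3 held matches in 4 places, those of Ldha and P4ha1 in 3 places, that of Slc16a3 in 2 places and those of Pdk1 and Egln3 in 1 place each. A second start site of Ldha, not printed, had 1 place in its window, and a second one of Pdk1 had none. In Slc16a3 both lie within 30 bases of the start site, at 27 and 14 bases before it. In Egln3 the single match lies 229 bases before it.

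From D8 on, 1 library of each day held the highest value of most of these genes. Library MR28 held the highest value of 32 of the 35 genes at D8, MR31 that of 29 at D10 and MR34 that of 33 at D15. The same 3 libraries held the highest value of all 6 cardiomyocyte markers (Tnnt2, Myh6, Actn2, Tnni3, Nkx2-5 and Myl7) on their day. Counts of genes without these 3 libraries together, a comparison chosen after the data were seen, are given beside the results. Counts under this and other alternatives are of the 35 genes, without the share of all genes under the same fit. The defining heart gene Myh6, which encodes the alpha cardiac myosin heavy chain, averaged 2154 ± 607 CPM at D15 against 7.77 ± 1.41 CPM at D5 (CPM, the count scaled by library size, SD, n = 3 each). The matrix marker Col1a1 averaged 11555 ± 1539 CPM at D15 against 127 ± 18.8 CPM at D5. Libraries labelled immature cardiomyocytes thus held both heart muscle RNA and a high level of collagen RNA.

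Nearly all of the genes were higher at D15 than at D5. At D15 against D5, 32 of 35 genes rose and 2 fell (edgeR quasi-likelihood test, Benjamini-Hochberg adjusted p under 0.05 over 13116 genes), where 40.3% of all genes tested rose and 37.7% fell. The median log2 fold change was 2.41 for the 35 genes and 0.03 for all genes tested, and the first does not change with Ndufa4l2, which had no count at D5, set at its bound. The 2 that fell were Hif1a and Epas1, which encode oxygen-sensitive HIF alpha subunits. Hif3a, a further HIF alpha subunit gene outside the list, rose. Pfkfb4 did not pass the test with a log2 fold change of 0.39 ± 0.22 (SE, adjusted p = 0.115). All 35 differed across the 6 days, as did 88.9% of all genes tested. The summed level of the 35 genes was 2933 ± 89.0 CPM at D5, 2581 ± 41.4 at D6, 2815 ± 55.6 at D7, 4879 ± 1235 at D8, 9106 ± 909 at D10 and 10864 ± 1803 at D15 (SD, n = 3). Every library of D8, D10 and D15 had a higher sum than every library of D5, D6 and D7. Without libraries MR28, MR31 and MR34, 32 genes rose and 2 fell at D15 against D5.

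**Figure D1:**
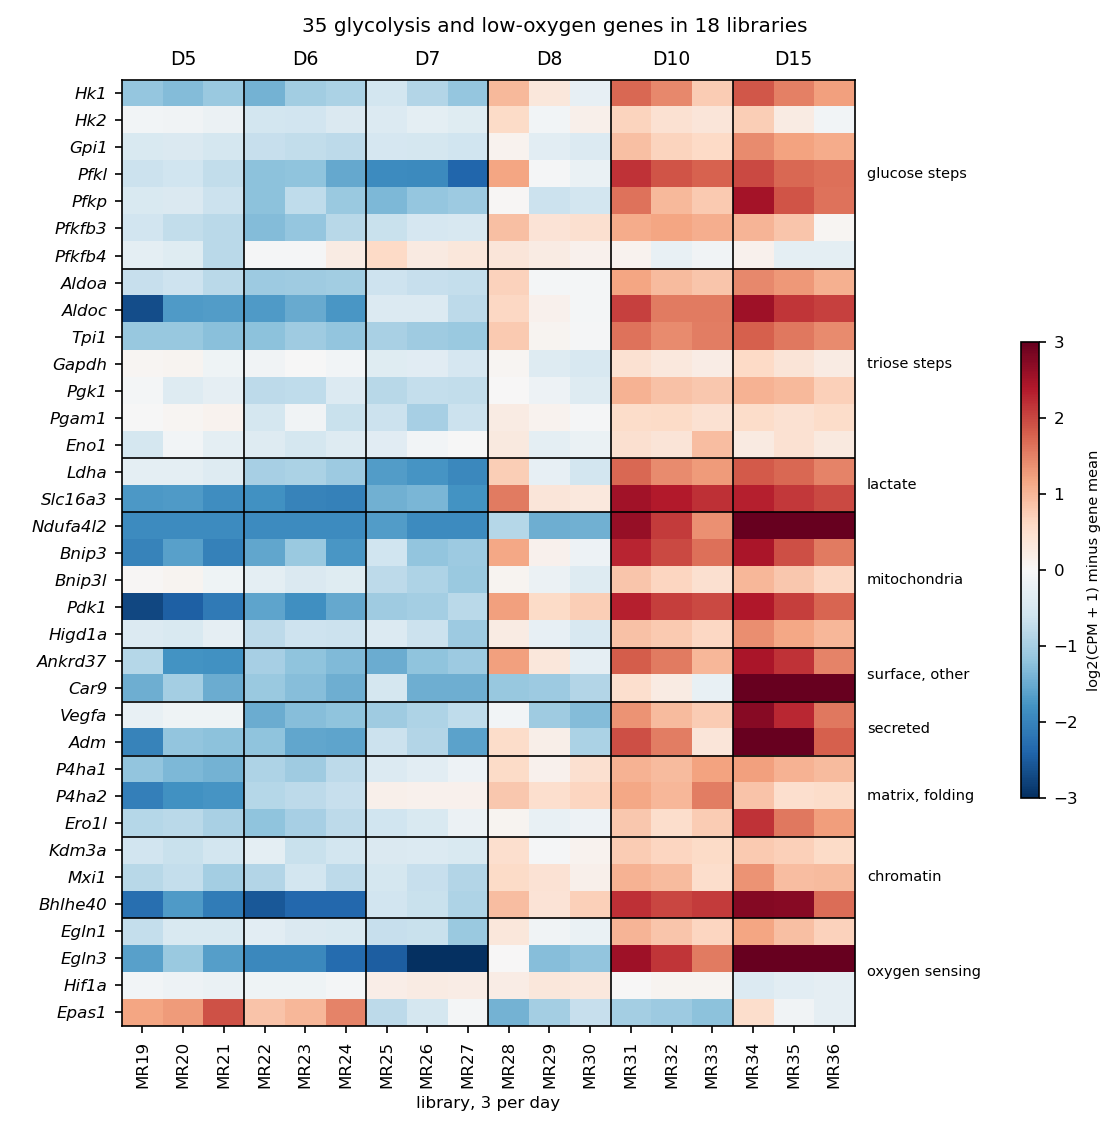
Level of the 35 genes (rows, grouped by role) in the 18 libraries (columns, by day), as log2(CPM + 1) minus the mean of the gene over all libraries; red is above and blue below that mean. Most rows turn from blue to red between D7 and D10, and Hif1a and Epas1 at the bottom do not.

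Most of the genes rose from D7 to D8 and again from D8 to D10. At D8 against D7, 24 of 35 genes rose and none fell, where 12.6% of all genes rose and 11.6% fell. The 2 genes with a negative log2 fold change (Pfkfb4 and Epas1) were also not lower at an unadjusted p under 0.05, in edgeR, DESeq2 or limma-voom. At D10 against D8, 29 genes rose and 1 (Hif1a) fell, beside 17.3% and 13.9% of all genes. A total of 22 genes rose at both steps, and the share of all genes that did so was not counted. The median log2 fold change was 0.86 from D7 to D8 and 0.91 from D8 to D10, and 0.00 for all genes tested at either step. With MR28 left out, 17 genes rose from D7 to D8, and without MR28, MR31 and MR34 together 24 rose at that step and 30 from D8 to D10. Fits on only the 2 days compared lost the calls of Hk1, Gpi1, Aldoa, Bnip3 and Higd1a from D7 to D8 (adjusted p 0.0553 to 0.114). From D8 to D10 they lost those of Hk1, Pfkl, Aldoa, Ldha, Slc16a3, Bnip3 and Ankrd37 (adjusted p 0.0634 to 0.190).

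At D15 against D10, 11 genes rose and 2 (P4ha2 and Hif1a) fell, beside 26.4% and 24.4% of all genes. The median was 0.15. Of the 16 glycolysis genes, 3 rose at this step (Gpi1, Pfkp and Aldoc), and of the 19 other genes 8 rose (Ndufa4l2, Vegfa, Egln3, Adm, Higd1a, Ero1l, Car9 and Epas1). With MR34 left out, 7 genes rose and 4 fell, and without the 3 libraries together 12 rose and 5 fell. The calls lost without MR34 were Pfkp, Adm, Aldoc and Higd1a, with adjusted p of 0.0567, 0.0685, 0.114 and 0.144. Aldoc was also lost without MR32 or MR33, Higd1a without MR32, MR33 or MR35, and Pfkp, Adm and Vegfa when only the 2 days were fitted (adjusted p 0.0532 to 0.122).

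At the earlier steps, D6 against D5 and D7 against D6, the fit over all 18 libraries called 7 and 9 of the 35 genes. Of all 13116 genes tested it called 4540 and 3984. The counts at D7 against D6 lay near the shares of all genes. At D6 against D5, 3 genes rose (Pfkfb4, P4ha1 and P4ha2) and 4 fell (Pgk1, Pgam1, Vegfa and Bnip3l), beside 18.2% and 16.4% of all genes. At D7 against D6, 5 rose (Aldoc, P4ha1, P4ha2, Bhlhe40 and Hif1a) and 4 fell (Gapdh, Ldha, Bnip3l and Epas1), beside 15.1% and 15.3% of all genes. These counts depended on single libraries and on the fit. More genes were lower at D6, and more were higher at D7, when only the 2 days compared were fitted. At D6 against D5, 1 gene rose with MR24 left out, and the call of Pfkfb4 was lost without MR21 or MR24 (adjusted p 0.153 and 0.122). The number that fell there was 1 without MR22, 2 without MR19, MR23 or MR24, and 8 without MR28. At D7 against D6, 8 genes rose without MR28 or MR36, and 2 fell without any 1 of 10 other libraries (MR19, MR20, MR22, MR23, MR25, MR26, MR27, MR32, MR33 or MR35).

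**Figure D2:**
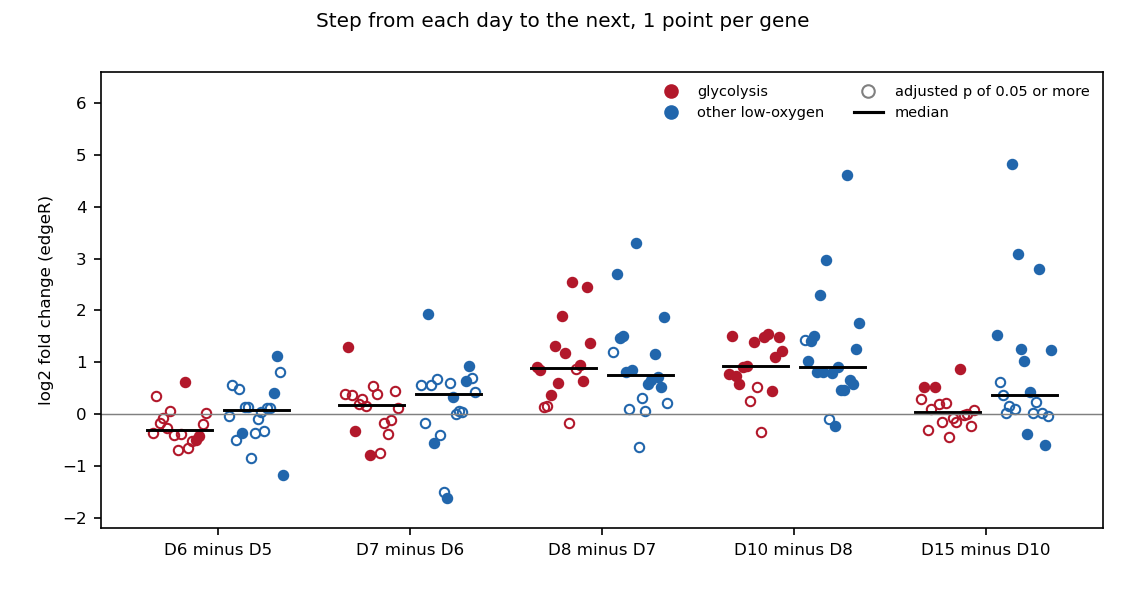
Log2 fold change of each gene (1 point) from each harvest to the next, later minus earlier day, for the glycolysis genes (red) and the other low-oxygen genes (blue); filled points have an adjusted p under 0.05, bars are medians, and Ndufa4l2 is left out where a day had at most 3 counts. The glycolysis median is 0.89 at D8 against D7, 0.92 at D10 against D8 and 0.03 at D15 against D10, while Car9, Egln3 and Ndufa4l2 are the 3 highest points of the last step.

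The first steps of glycolysis trap glucose in the cell and prepare it for splitting. Hexokinase genes Hk1 and Hk2 encode the enzymes that phosphorylate glucose. Hk1 averaged 172 ± 37.5 CPM at D15 against 24.7 ± 1.74 at D5, a log2 fold change of 2.80 ± 0.33 (SE, adjusted p = 3.71e-06). Hk2 averaged 169.7 ± 49.5 CPM at D15 against 123 ± 4.51 at D5, and its log2 fold change of 0.47 ± 0.19 (SE, adjusted p = 0.0357) was lost when MR19, MR20, MR21 or MR34 was left out (0.22 to 0.48, adjusted p 0.0626 to 0.206) and when only the 2 days were fitted (adjusted p = 0.119). Pfkl and Pfkp encode subunits of phosphofructokinase, the main control point of the pathway. Pfkl averaged 78.1 ± 3.64 CPM at D5, 29.4 ± 5.34 at D7 and 482 ± 70.1 at D10, and its log2 fold change at D8 against D7 was 2.55 ± 0.34 (SE, adjusted p = 1.19e-04), the largest of the 16 glycolysis genes at that step. Pfkp rose by 2.60 ± 0.27 (SE, adjusted p = 1.21e-06) at D15 against D5. Pfkfb3 and Pfkfb4 encode enzymes that make and remove an activator of phosphofructokinase. Pfkfb3 rose by 1.41 ± 0.22 (SE, adjusted p = 4.46e-05), and Pfkfb4, at 5.64 ± 1.24 CPM at D5, 11.2 ± 1.53 at D7 and 7.36 ± 1.41 at D15, was the 1 glycolysis gene with its highest mean at D7.

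Gpi1, the isomerase that turns glucose phosphate into fructose phosphate (mm10 chromosome 7, 34201330 to 34230336, minus strand), had 254, 258 and 243 CPM at D5, 215, 209.5 and 202 at D6, and 245, 241 and 229 at D7. It had 378, 280.2 and 263 CPM at D8, 655, 553 and 526 at D10, and 933, 805 and 752 at D15. Its values at D10 and D15 lay above those of every earlier day and did not overlap each other. Gpi1 rose by 1.72 ± 0.11 (SE, adjusted p = 1.36e-10) on the log2 scale at D15 against D5 and 0.52 ± 0.11 (SE, adjusted p = 6.86e-04) at D15 against D10. Gpi1 has also been an older symbol of another gene, Pigq, and which was meant was not given in the sources used here.

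Splitting of the sugar and the triose steps that follow yield ATP. All 7 genes of these steps rose at D15 against D5, where 40.3% of all genes tested rose. Aldoc, 1 of the aldolases that split the sugar (mm10 chromosome 11, 78322968 to 78327781, plus strand), had 1.74, 4.33 and 4.36 CPM at D5, 4.28, 5.05 and 4.12 at D6, and 11.9, 12.03 and 8.98 at D7. It had 25.7, 17.9 and 15.6 CPM at D8, 70.1, 50.2 and 49.9 at D10, and 98.9, 75.6 and 70.7 at D15. Every library of D7 lay above every library of D5 and D6, and those of D15 above those of D10. Aldoc rose by 4.54 ± 0.25 (SE, adjusted p = 2.50e-12) at D15 against D5, the largest of the 16 glycolysis genes. Its sister Aldoa had a far higher level per length, at 552 ± 70.5 RPKM (CPM divided by exon length in kilobases) at D15 against 139 ± 9.31 at D5. Aldoc had 25.04 ± 4.62 RPKM at D15 against 1.07 ± 0.460 at D5. Aldoa made up 95.7 ± 0.327% of the aldolase RNA at D15 against 99.2 ± 0.340% at D5.

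Tpi1, the triose phosphate isomerase (mm10 chromosome 6, 124810586 to 124814296, minus strand), had 189.9, 189.6 and 173 CPM at D5, 176, 198 and 185 at D6, and 212, 198 and 193 at D7. It had 716, 441 and 410.0 CPM at D8, 1285, 1125 and 1213 at D10, and 1445, 1244 and 1116 at D15. The 9 libraries of the first 3 days lay between 173 and 212 CPM, and the 3 of D8 all lay above them, with MR28 highest. Its log2 fold change was 1.38 ± 0.17 (SE, adjusted p = 6.34e-05) at D8 against D7, 1.21 ± 0.17 (SE, adjusted p = 1.11e-04) at D10 against D8 and 0.07 ± 0.17 (SE, adjusted p = 0.752) at D15 against D10, the last of which did not pass the test. Of the other triose genes, at D15 against D5 Gapdh rose by 0.42 ± 0.12, Pgk1 by 1.19 ± 0.13, Pgam1 by 0.48 ± 0.15 and Eno1 by 0.74 ± 0.24 (log2, SE), with adjusted p of 0.00435, 1.40e-09, 0.00443 and 0.00721. These 4 genes share sequence with other loci. Only 74.9%, 46.1%, 63.8% and 74.0% of the 50-base stretches of Gapdh, Pgk1, Pgam1 and Eno1 are unique among annotated transcripts, so their values are uncertain. Eno1 has also been an older symbol of another gene, Eno1b. Pyruvate kinase, the last step, stood in the table as Pkm2, an older symbol of Pkm. That row averaged 1212 ± 123 CPM at D15 against 645 ± 21.1 at D5 and rose by 0.91 ± 0.15 (SE, adjusted p = 5.55e-05), with 74.2% of its stretches unique.

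Lactate dehydrogenase A turns pyruvate into lactate, and the transporter encoded by Slc16a3 carries lactate out of the cell. Ldha had 297, 299.5 and 280.5 CPM at D5, 182, 189.6 and 170.1 at D6, and 114, 106 and 94.6 at D7. It had 611, 309 and 249 CPM at D8, 1211, 979 and 889 at D10, and 1324, 1211 and 1029 at D15. Ldha was thus lowest at D7 in every library, with all 3 values under those of D5 and D6. The call at D7 against D6, with a log2 fold change of -0.78 ± 0.27 (SE, adjusted p = 0.0456), was lost with any 1 of 14 libraries left out (MR19 to MR27 and MR32 to MR36, adjusted p 0.0518 to 0.130). It was also lost without the filter on low counts (adjusted p = 0.0606). The call was kept with the other scaling factors, DESeq2 and limma-voom, and when only the 2 days were fitted. The log2 fold change at D8 against D7 was 1.90 ± 0.27 (SE, adjusted p = 2.17e-04), and at D15 against D5 2.02 ± 0.26 (SE, adjusted p = 8.88e-06).

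Slc16a3 (mm10 chromosome 11, 120948480 to 120960868, plus strand) had 23.8, 24.2 and 21.5 CPM at D5, 22.2, 19.3 and 19.0 at D6, and 29.0, 30.4 and 22.6 at D7. It had 240.3, 104 and 102 CPM at D8, 467, 424 and 372 at D10, and 409, 352 and 321 at D15. All libraries from D8 on lay above all earlier ones, and MR28 was the highest of D8. Slc16a3 rose by 2.45 ± 0.31 (SE, adjusted p = 7.35e-05) on the log2 scale at D8 against D7, 1.49 ± 0.26 (SE, adjusted p = 7.23e-04) at D10 against D8 and 3.96 ± 0.31 (SE, adjusted p = 5.51e-08) at D15 against D5. The D10 against D8 call was lost when only those 2 days were fitted (adjusted p = 0.0640).

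Mitochondrial genes of the low-oxygen response all rose at D15 against D5 (5 of 5), where 40.3% of all genes tested rose. Ndufa4l2 encodes a mitochondrial protein that lowers the activity of the respiratory chain when oxygen is short (mm10 chromosome 10, 127514967 to 127517154, plus strand). It had no count in any library of D5 and D6 and 1 count in all at D7. It had 1.02, 0.332 and 0.359 CPM at D8, 21.3, 14.7 and 8.50 at D10, and 139.8, 88.2 and 85.2 at D15. With 1824 counts at D15 and 0 at D5, it was at least 739.6-fold higher at D15, taking D5 at a floor of 3 counts over its 3 libraries (adjusted p = 2.63e-08). At D8 against D7 the counts were 11 and 1, a ratio of 11.7 with a 95% counting interval of 1.70 to 503, and the test was not passed (adjusted p = 0.261). Ndufa4l2 rose by 4.62 ± 0.60 (SE, adjusted p = 1.52e-04) on the log2 scale at D10 against D8 and 2.79 ± 0.30 (SE, adjusted p = 1.39e-05) at D15 against D10. These counting intervals and floors cover counting error only.

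Pdk1 encodes a kinase that shuts off pyruvate dehydrogenase, the entry of pyruvate into the mitochondrial cycle. It averaged 11.1 ± 2.61 CPM at D5, 19.7 ± 2.26 at D6, 32.1 ± 3.13 at D7, 118 ± 29.8 at D8, 282 ± 36.9 at D10 and 275 ± 61.8 at D15. Pdk1 rose by 4.62 ± 0.25 (SE, adjusted p = 5.04e-10) on the log2 scale at D15 against D5 and 1.88 ± 0.22 (SE, adjusted p = 3.01e-05) at D8 against D7. Bnip3 and Bnip3l encode receptors that mark mitochondria for removal, and Higd1a a small protein of the respiratory chain. Their log2 fold changes at D15 against D5 were 4.08 ± 0.40, 0.82 ± 0.12 and 1.59 ± 0.16 (SE), with adjusted p of 5.99e-07, 1.59e-06 and 5.53e-08. Unique stretches made up 52.8%, 79.2% and 75.6% of these 3 genes, so their values are uncertain. Pdk1 has also been an older symbol of another gene, Pdpk1.

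Car9 encodes a carbonic anhydrase on the cell surface that helps to clear acid, and is a widely used marker of low oxygen (mm10 chromosome 4, 43506966 to 43513729, plus strand). Car9 had 0.145, 0.559 and 0.136 CPM at D5, 0.458, 0.306 and 0.158 at D6, and 1.19, 0.154 and 0.155 at D7. It had 0.435, 0.497 and 0.718 CPM at D8, 3.53, 2.76 and 1.74 at D10, and 90.8, 64.4 and 79.0 at D15. Every D10 library lay above every earlier one, and every D15 library above every D10 library. The log2 fold change was 4.83 ± 0.24 (SE, adjusted p = 3.90e-16) at D15 against D10, the largest rise of that step, and 8.02 ± 0.33 (SE, adjusted p = 4.96e-19) at D15 against D5. Its F across days was the largest of the 35 genes (adjusted p = 1.38e-22). Ankrd37, which encodes an ankyrin repeat protein induced by low oxygen, passed the test at D8 against D7. It averaged 0.868 ± 0.250 CPM at D7, 5.59 ± 3.47 at D8 and 17.97 ± 6.03 at D15, and its log2 fold change at D8 against D7 was 2.70 ± 0.55 (SE, adjusted p = 9.57e-04), from 108 counts at D8 and 17 at D7.

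Secreted signals of the response call for blood vessels. Vegfa, the main growth factor of endothelial cells, averaged 98.1 ± 4.18 CPM at D5, 43.2 ± 4.28 at D6, 66.8 ± 32.7 at D8, 227 ± 48.1 at D10 and 532 ± 203 at D15. Vegfa fell at D6 against D5, with a log2 fold change of -1.19 ± 0.35 (SE, adjusted p = 0.0182), a call lost with MR22 left out (-1.11, adjusted p = 0.0649). It rose by 1.23 ± 0.30 (SE, adjusted p = 0.00397) at D15 against D10. Adm, which encodes the vessel-widening peptide adrenomedullin, averaged 86.9 ± 45.3 CPM at D15 against 3.30 ± 1.22 at D5 and rose by 4.70 ± 0.59 (SE, adjusted p = 7.08e-06). Within D10 and within D15 Adm varied most of the 35 genes: its highest library was 3.08 times its lowest at D10 and 3.30 times at D15.

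Both collagen hydroxylase genes of the list rose at each of the first 2 steps, where 18.2% and 15.1% of all genes rose. P4ha1 and P4ha2 encode catalytic subunits of collagen prolyl hydroxylase, which needs oxygen to stabilise collagen. P4ha1 (mm10 chromosome 10, 59323296 to 59373304, plus strand) had 89.1, 78.5 and 75.2 CPM at D5, 106, 96.9 and 117 at D6, and 153, 162 and 181 at D7. It had 303, 221 and 285 CPM at D8, 417, 395 and 467 at D10, and 480.0, 417 and 392 at D15. The libraries of each day up to D10 lay above all those of the day before, and D10 and D15 overlapped. The log2 fold change of P4ha1 was 0.40 ± 0.12 (SE, adjusted p = 0.0152) at D6 against D5, a call lost with MR20, MR21 or MR24 left out (adjusted p 0.0524 to 0.0666), and 0.63 ± 0.12 (SE, adjusted p = 4.18e-04) at D7 against D6. P4ha2 rose by 1.12 ± 0.14 (SE, adjusted p = 8.73e-06) at D6 against D5 and by 0.92 ± 0.13 (SE, adjusted p = 3.29e-05) at D7 against D6. It then fell at D15 against D10, with a log2 fold change of -0.60 ± 0.12 (SE, adjusted p = 4.09e-04). The summed level of 6 matrix markers (Col1a1, Col3a1, Dcn, Postn, Pdgfra and Lum) was higher on the same days. It was 376 to 409.9 CPM in the D5 libraries, 1635 to 1906 at D6 and 3610 to 4954 at D7. All 6 rose at D6 against D5, beside 18.2% of all genes. At D7 against D6, 3 rose and 1 fell, beside 15.1% and 15.3% of all genes. Pdgfra had 2348 to 2624 counts per library at D6 and 1407 to 1557 at D7. The part of these markers in the P4ha1 and P4ha2 rises was not tested. Ero1l, which encodes an oxidase that forms disulphide bonds in new proteins, averaged 289 ± 96.0 CPM at D15 against 141 ± 14.2 at D10, a log2 fold change of 1.03 ± 0.20 (SE, adjusted p = 6.21e-04).

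Chromatin and transcription genes of the response rose at D15 against D5 in 3 of 3 cases, where 40.3% of all genes tested rose. Bhlhe40, which encodes a repressor of transcription tied to the clock and to low oxygen, averaged 4.08 ± 0.354 CPM at D6, 15.6 ± 2.04 at D7, 116 ± 8.23 at D10 and 149 ± 54.3 at D15. At D7 against D6 it had the largest rise of the 35 genes, 1.93 ± 0.41 (SE, adjusted p = 0.00297). Mxi1, which encodes an antagonist of MYC, rose by 2.01 ± 0.16 (SE, adjusted p = 2.47e-12) at D15 against D5. Kdm3a, which encodes a histone demethylase, rose by 1.30 ± 0.11 (SE, adjusted p = 6.20e-10).

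At D15 against D5 both oxygen sensors of the list rose and both of its HIF subunits fell, beside 40.3% and 37.7% of all genes. Egln3, an inducible HIF prolyl hydroxylase (mm10 chromosome 12, 54178981 to 54203860, minus strand), had 2.91, 4.61 and 2.86 CPM at D5, 2.14, 2.14 and 1.43 at D6, and 1.19, 0.463 and 0.310 at D7. It had 11.2, 3.98 and 4.31 CPM at D8, 69.5, 52.3 and 34.4 at D10, and 581, 460.3 and 303 at D15. The D7 libraries lay under all those of the other days, and the D15 libraries lay above all others. The log2 fold change was 2.97 ± 0.41 (SE, adjusted p = 1.18e-04) at D10 against D8, 3.09 ± 0.29 (SE, adjusted p = 1.14e-06) at D15 against D10 and 7.01 ± 0.40 (SE, adjusted p = 1.78e-09) at D15 against D5. At D8 against D7 it was 3.31 ± 0.94 (SE, adjusted p = 0.0203), from 125 counts at D8 and 13 at D7. That call was lost with MR26, MR27 or MR28 left out (adjusted p 0.0658 to 0.116) and in limma-voom (adjusted p = 0.0732). Egln1, the main HIF prolyl hydroxylase, rose by 1.49 ± 0.17 (SE, adjusted p = 1.17e-06) at D15 against D5.

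Hif1a (mm10 chromosome 12, 73901375 to 73947530, plus strand) had 413, 392 and 382 CPM at D5, 403, 401 and 421 at D6, and 505, 523 and 514 at D7. It had 512, 551 and 542 CPM at D8, 439, 463 and 465 at D10, and 331, 351 and 364 at D15. The libraries of D7 and D8 were the highest and those of D15 the lowest, with no overlap with any other day. Hif1a rose by 0.33 ± 0.06 (SE, adjusted p = 4.42e-05) at D7 against D6, and its log2 fold change was -0.23 ± 0.06 (SE, adjusted p = 0.00228) at D10 against D8 and -0.39 ± 0.06 (SE, adjusted p = 1.84e-06) at D15 against D10. At D15 against D5 it was -0.18 ± 0.06 (SE, adjusted p = 0.00502). The spread of its day means was small beside that of the targets: the highest, at D8, was 535 ± 20.7 CPM and the lowest, at D15, 349 ± 16.8 CPM. Each of these tests concerns RNA and says nothing of HIF protein.

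Epas1, which encodes the other main HIF alpha subunit and is known for its part in endothelium (mm10 chromosome 17, 86753700 to 86833410, plus strand), had 58.0, 62.3 and 97.5 CPM at D5, 45.8, 50.8 and 72.7 at D6, and 14.1, 17.1 and 23.9 at D7. It had 8.71, 11.9 and 15.3 CPM at D8, 11.96, 11.2 and 10.05 at D10, and 36.3, 23.2 and 20.6 at D15. The libraries of D5 and D6 lay above all later ones, and those of D15 above all of D10. The log2 fold change was -1.62 ± 0.29 (SE, adjusted p = 7.51e-04) at D7 against D6, 1.26 ± 0.34 (SE, adjusted p = 0.00670) at D15 against D10 and -1.45 ± 0.27 (SE, adjusted p = 2.56e-04) at D15 against D5. Without MR28, MR31 and MR34 the D15 against D10 value was 1.03 (adjusted p = 0.0728). The summed level of 6 endothelial markers (Pecam1, Cdh5, Tie1, Tek, Emcn and Kdr) was 122 to 146 CPM in the D5 libraries, 395 to 475 at D6, 386 to 538 at D7, 329 to 455 at D8, 246 to 288 at D10 and 297 to 448 at D15. Tek gave the largest part of this sum from D6 to D10, and the markers did not move together. At D15 against D10, 4 of the 6 rose and 1 fell (median log2 fold change 1.57), beside 26.4% and 24.4% of all genes. Tek had 841 to 940 counts per library at D10 and 426 to 644 at D15, and Cdh5 had 72 to 219 and 380 to 781. MR34 was highest for 4 of the 6 at D15, and 1 of the 6 was at 0 in libraries MR19 and MR21. Their part in the Epas1 values was not tested.

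**Figure D3:**
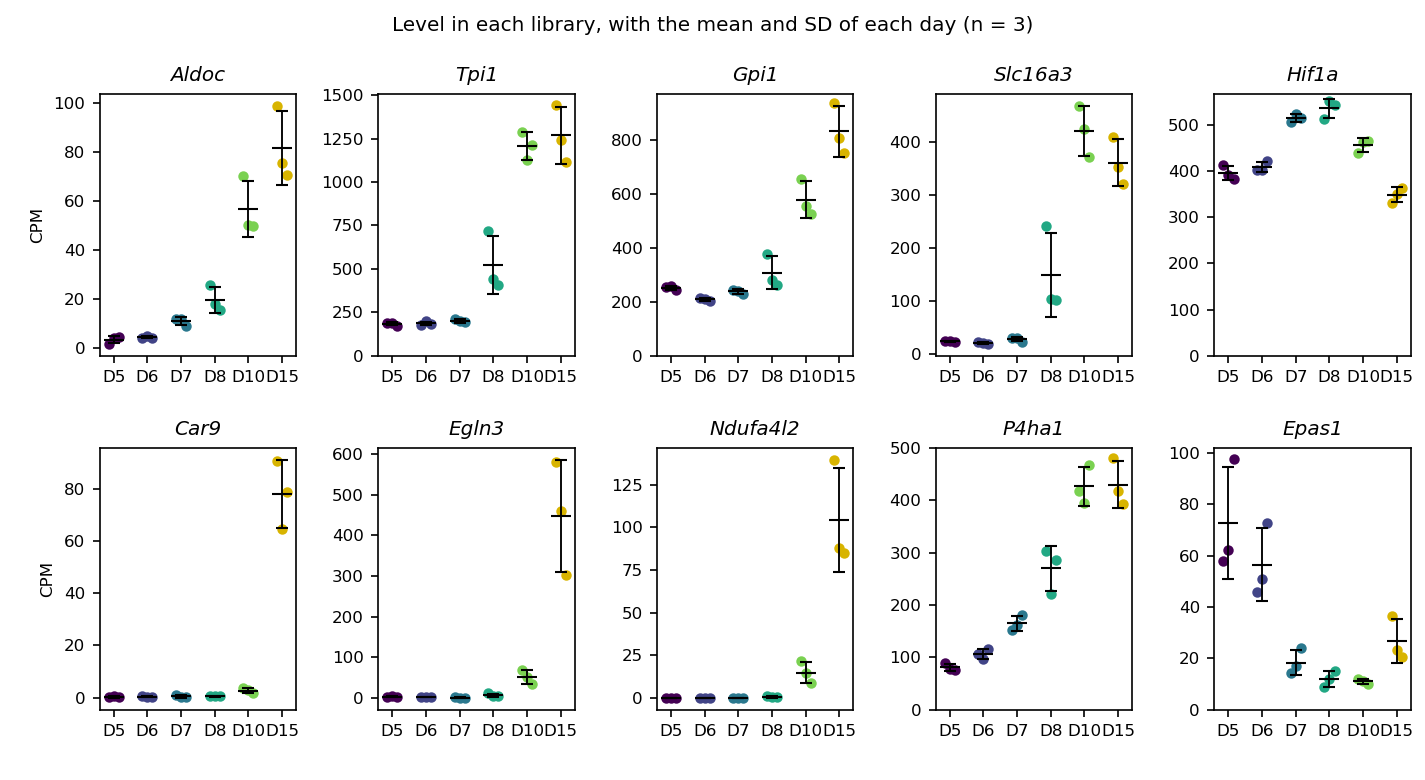
Level in CPM of 10 genes in each library (points, 3 per day), with the mean and SD of each day (black); each panel has its own linear axis. Car9, Egln3 and Ndufa4l2 are low until D8 and reach 64.4, 303 and 85.2 CPM or more in each D15 library, while Hif1a stays between 331 and 551 CPM throughout.

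On a per-length scale the most abundant RNAs of the 35 genes at D15 were Aldoa with 552 ± 70.5 RPKM, Tpi1 with 461 ± 60.3 and Ldha with 359 ± 44.9, followed by Egln3 with 168 ± 52.2. Gapdh, Pgk1, Pgam1 and Eno1 have only 46.1% to 74.9% unique stretches, so their levels and ranks are uncertain on every day. The ranges of Aldoa and Tpi1 overlapped, with libraries from 478 to 619 RPKM for Aldoa and from 405 to 525 for Tpi1. The Ldha libraries, at 311 to 399.9 RPKM, lay under all of both, and those of Egln3, at 114 to 218, overlapped Gpi1 (117 to 145) and Vegfa (76.5 to 171). The Pkm2 row, outside the 35, had 242 ± 24.5 RPKM at D15 against 129 ± 4.22 at D5. The order was another at D5, where Aldoa had 139 ± 9.31 RPKM, Gapdh 89.0 ± 6.81, Ldha 88.3 ± 3.12, Hif1a 67.1 ± 2.66 and Tpi1 66.9 ± 3.46. Egln3 had 1.30 ± 0.374 RPKM at D5.

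Within families of related enzymes, the share of each gene in the summed RPKM of the family moved, which is given as a description. Ldha made up 76.3 ± 0.819% of Ldha and Ldhb at D5, 48.9 ± 2.44% at D7, 82.9 ± 0.824% at D10 and 74.3 ± 1.06% at D15. Ldhb favours the reverse reaction, from lactate to pyruvate, and is the main form of the adult heart. Slc16a3 made up 11.4 ± 1.23% of the 2 lactate transporters Slc16a1 and Slc16a3 at D7, 61.2 ± 4.77% at D10 and 52.6 ± 4.27% at D15. Among the 3 phosphofructokinase genes, Pfkl held 56.8 ± 0.799% at D10 against 10.9 ± 1.70% at D7, while Pfkm, the muscle form, held 35.5 ± 1.92% at D10 against 84.5 ± 1.16% at D7. Hk1 held 41.7 ± 1.70% of hexokinase RNA at D15 against 12.3 ± 1.06% at D5, with Hk2 making up nearly all of the rest.

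Shares among the regulators moved as well. Pdk1 held 6.98 ± 1.75% of the 4 pyruvate dehydrogenase kinase genes at D5, 46.6 ± 1.74% at D10 and 30.7 ± 2.67% at D15. Pdk4, the form tied to fatty acid use, held 29.3 ± 0.673% at D15 against 3.01 ± 0.836% at D10, while Pdk1 itself did not pass the test at D15 against D10, with a log2 fold change of -0.04 ± 0.18 (SE, adjusted p = 0.882). Egln3 held 2.95 ± 0.713% of the 3 HIF prolyl hydroxylase genes at D5, 19.4 ± 3.57% at D10 and 65.6 ± 5.22% at D15. Hif1a held 61.6 ± 5.10% of the 3 HIF alpha subunit genes at D15 against 81.8 ± 4.52% at D5, and Hif3a, whose product is known mainly as a brake on HIF activity, held 33.5 ± 3.77% at D15 against 2.42 ± 0.252% at D5.

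**Figure D4:**
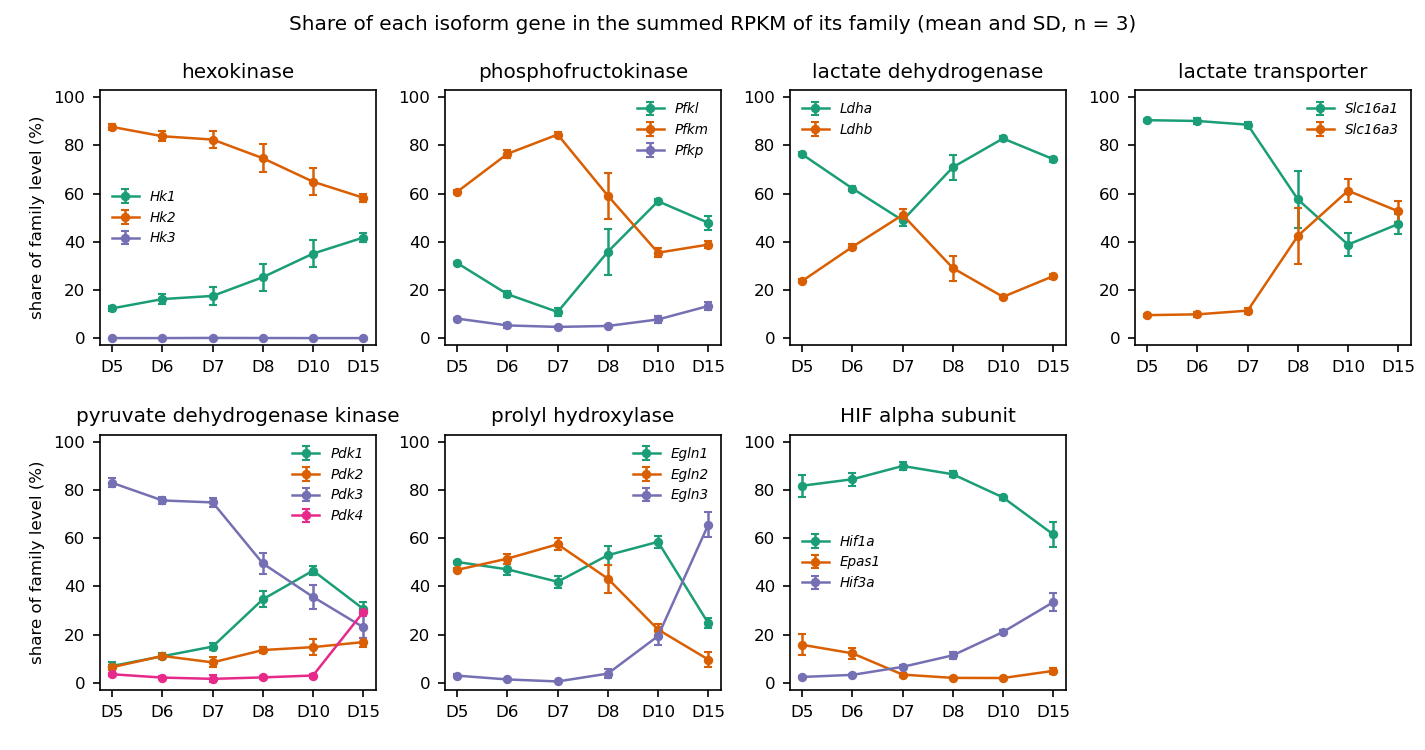
Share of each gene in the summed RPKM of 7 families by day (points are means and bars SD of 3 libraries). Ldha, Slc16a3, Pfkl and Pdk1 reach their highest share at D10, and Egln3 and Hif3a reach theirs at D15.

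Related genes outside the list were counted for context. Of 27 other genes of glycolysis and pyruvate use, 23 were tested, and 17 rose and 5 fell at D15 against D5 (median 1.21), where 40.3% of all genes tested rose and 37.7% fell. The 5 that fell were Slc2a1, Slc2a3, Pfkfb1, 9630033F20Rik and Bpgm. Those with the largest F across days were Eno2, Pdk4, Slc2a1 and Slc2a3. Slc2a1 and Slc2a3 encode the glucose transporters of embryonic cells, and both fell. Slc2a1 averaged 529 ± 111 CPM at D15 against 3124 ± 153 at D5, a log2 fold change of -2.56 ± 0.14 (SE, adjusted p = 3.24e-10). Slc2a3 averaged 173 ± 61.1 CPM at D15 against 2172 ± 66.3 at D5, a log2 fold change of -3.65 ± 0.25 (SE, adjusted p = 1.55e-08). Both are known HIF targets in other cells. Eno2, an enolase gene, rose by 4.56 ± 0.16 (SE, adjusted p = 1.79e-20), and Pdk4 by 5.53 ± 0.29 (SE, adjusted p = 3.08e-12).

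Of 13 further genes of the oxygen-sensing machinery, 6 rose and 5 fell at D15 against D5 (median 0.17), shares near the 40.3% and 37.7% of all genes tested. The 5 that fell were Cited2, Ep300, Tceb1, Cul2 and Rbx1. Hif3a rose by 4.01 ± 0.13 (SE, adjusted p = 3.23e-19), Vhl, which encodes the part of the ubiquitin ligase that binds hydroxylated HIF, by 1.47 ± 0.09 (SE, adjusted p = 1.30e-14), and Arnt, the stable HIF partner, by 0.69 ± 0.06 (SE, adjusted p = 9.82e-11). Cited2, which encodes a competitor of HIF for its coactivators, fell, with a log2 fold change of -1.203 ± 0.08 (SE, adjusted p = 1.20e-13). Of 39 other low-oxygen targets, 38 were tested, and 31 rose and 2 (Wsb1 and Rcor2) fell (median 1.95). Among those with the largest F were Lox, Loxl2 and Igfbp3. Igfbp3, which binds insulin-like growth factors, rose by 4.51 ± 0.17 (SE, adjusted p = 1.14e-12). Lox and Loxl2 encode enzymes that cross-link collagen, and Lox averaged 1709 ± 67.9 CPM at D15 against 0.646 ± 0.407 at D5 and Loxl2 1055 ± 67.5 CPM against 79.2 ± 2.22. Matrix-making cells also express these genes, and all 6 matrix markers were higher at D15 than at D5, beside 40.3% of all genes. Their part in the Lox and Loxl2 rises was not tested.

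For the 35 genes together, libraries of the same day differed most at D8. The median fold between the highest and the lowest library of a day, over genes with a mean of at least 2 CPM, was 1.15 at D5, 1.21 at D6, 1.27 at D7, 1.59 at D8, 1.29 at D10 and 1.37 at D15. For the 19 other low-oxygen genes alone it was larger at D15, with 1.57 at D15 against 1.48 at D8. At D8 the 16 glycolysis genes summed to 4274 CPM in MR28, 2575 in MR29 and 2433 in MR30. The 6 cardiomyocyte markers summed to 1578, 1188 and 554 CPM in those libraries, and the 6 matrix markers to 12329, 11928 and 17099 CPM. All 16 glycolysis genes were highest in MR28.

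On the later days the glycolysis and cardiomyocyte sums again followed each other, and the matrix sums ran the other way. At D10 the glycolysis genes summed to 7102 CPM in MR31, 6050 in MR32 and 5689 in MR33, beside cardiomyocyte markers at 3198, 2280 and 1243 CPM and matrix markers at 17301, 18494 and 22138 CPM. At D15 they summed to 8081 CPM in MR34, 6973 in MR35 and 6116 in MR36, beside cardiomyocyte markers at 6131, 4657 and 3684 CPM and matrix markers at 24606, 28588 and 30675 CPM. Col1a1 and Col3a1 gave most of the matrix sums, and single matrix markers did not all follow them. Of the 6, 5 were highest in MR33 and 1 in MR31 at D10. At D15, 3 were highest in MR36, 2 in MR35 and 1 in MR34. At D7 library MR25 was highest for all 6 cardiomyocyte markers and for 18 of the 35 genes, while the glycolysis sums of its 3 libraries lay between 1482 and 1607 CPM. On each of the 6 days the column with the lowest running number had the highest cardiomyocyte marker sum and the one with the highest number the lowest, and whether such columns share a culture was not tested. None of the 6 cardiomyocyte markers was at 0 in any library. Total counts were 6769054 in MR28, 6506504 in MR31 and 6129209 in MR34, the highest of their day at D8 and D10 and not at D15. The part of cell makeup in the levels of these genes was not tested.

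**Figure D5:**
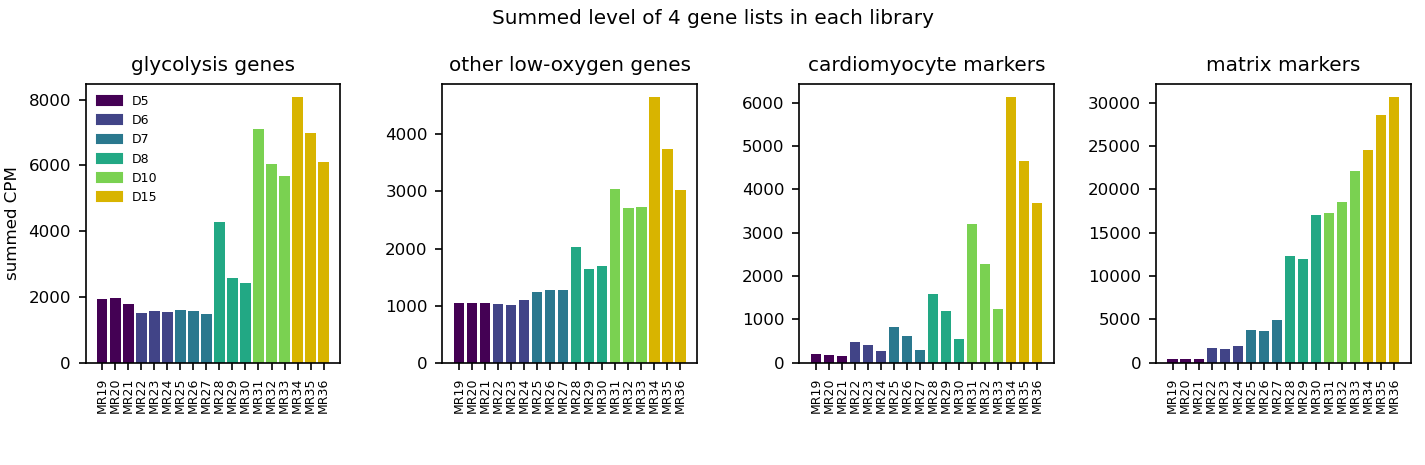
Summed level in CPM of the 16 glycolysis genes, the 19 other low-oxygen genes, 6 cardiomyocyte markers and 6 matrix markers in each of the 18 libraries (bars, coloured by day; each panel has its own axis from 0). MR28, MR31 and MR34 hold the highest bar of their day in the first 3 panels and not in the matrix panel.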

How the data were processed

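Poly(A) RNA of 18 libraries, 3 per day on 6 days, was sequenced as stranded single-end reads, per the labels' protocols, and aligned with STAR to mm10, per the submitters' processing notes. The deposited table holds the authors' raw read counts per gene symbol. How reads were counted, with which annotation and whether by strand, is not given in the sources used here, so reads of overlapping and antisense genes cannot be told apart. Of its columns, 18 matched samples by name and 3 matched none and were not used.

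Counts were scaled with TMM factors and fitted with edgeR 4.0.16 (R 4.3.3) by quasi-likelihood, with day as the only factor over all 18 libraries, after filterByExpr with a minimum count of 10. This left 13116 genes and 12 residual degrees of freedom, and the common biological coefficient of variation was 8.27%. Each contrast was adjusted by Benjamini-Hochberg over all genes tested, with a threshold of 0.05. Library totals ran from 5257601 to 7122093 counts, and chi-square over degrees of freedom between same-day libraries from 2.21 to 9.23, so none was a repeat within sampling noise. Levels are CPM from TMM-scaled totals, and RPKM divides CPM by GENCODE M21 exon length. Unique shares are of 50-base stretches. Alternatives were other scaling factors, filters, DESeq2 1.42.0, limma-voom (limma 3.58.1), fits on only the days compared and libraries left out. The script was tested on simulated data.

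The genes and lists were chosen with earlier results of these data known. Genes with values in every library were Aldoc, Tpi1, Gpi1, Slc16a3, Car9, Egln3, Ndufa4l2, P4ha1, Hif1a and Epas1. All but Hif1a and Epas1 were taken for the 4 largest F across days among the glycolysis genes or among the other genes. Their separation by day therefore does not stand for the 35. Ldha was added after its values were seen. The largest changes of each step and up to 4 genes per context list, by F across days, are also named. Other genes illustrate their role.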

Additional observations from a re-analysis of the deposited data

How the results depend on the processing

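No paired analysis was possible because the columns carry running numbers that no label ties to the replicate numbers of the samples. Alternatives were run for the 35 genes and not for the context lists. No called log2 fold change of the 35 genes, and none of theirs at D15 against D5, changed sign under an alternative that gave it a value (uncalled changes of the single steps were not rerun), and the counts at D15 against D5 and across days stayed within 1.5 times the reported ones in all. The counts of D6 against D5 and D7 against D6 moved most. Genes lower at D6 than D5 numbered 13 when only the 2 days were fitted and 10 without MR28, MR31 and MR34. Genes higher at D7 than D6 numbered 8 with DESeq2, 13 when only the 2 days were fitted and 11 without those 3 libraries, and genes lower at D7 than D6 numbered 2 without the filter on low counts. Genes lower at D15 than D10 numbered 5 without the 3 libraries. With each library left out in turn, 35 to 35 genes differed across days. Higher and lower genes then numbered 31 to 32 and 2 to 2 at D15 against D5, 1 to 4 and 1 to 8 at D6 against D5, 5 to 8 and 2 to 6 at D7 against D6, 17 to 25 and 0 to 0 at D8 against D7, 24 to 31 and 1 to 1 at D10 against D8, and 7 to 13 and 2 to 4 at D15 against D10. The cause of these shifts was not tested, and the shares of all genes under the same alternatives are not given here. Depth limits Ndufa4l2 and Car9 before D10, Ankrd37 before D8 and Egln3 at D7, which rest on a few counts per library.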
